A study of Mus musculus with 8 samples.

Results

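N6-methyladenosine (m6A) is deposited on mRNA by a nuclear enzyme complex, and the RNA of its 8 core writer genes was examined in the postnatal mouse retina: *Mettl3*, *Mettl14*, *Wtap*, *Virma*, *Zc3h13*, *Cbll1*, *Rbm15* and *Rbm15b*. The genes were chosen by symbol, as the established subunits of the complex, and each symbol matched a single row among the 54532 genes counted. METTL3 is the catalytic subunit, which transfers a methyl group from S-adenosylmethionine to adenosine, and METTL14 is its inactive partner, which holds the enzyme on RNA. The other subunits do not carry out catalysis. WTAP, VIRMA, ZC3H13 and CBLL1 form the scaffold that places the METTL3-METTL14 heterodimer in the nucleus and on its targets, and RBM15 and RBM15B are RNA-binding proteins that recruit the complex to RNA. Reader proteins then bind m6A and change the fate of the mRNA, whereas erasers remove the mark.

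RNA of the whole retina was sequenced from 4 *Mettl3*-CKO samples and 4 samples of littermate controls, all at day 7 after birth (p7) in the sample labels. The *Mettl3*-CKO genotype was Six3-Cre+; Mettl3floxed/floxed, and the sources used here give the controls only as littermates. The study's methods state a slightly younger age than the labels. *Six3-Cre* acts in retinal progenitor cells (RPCs), the dividing cells that give rise to the retinal neurons and Müller glia, and the study describes the deletion for the central retina. Cells that do not descend from these RPCs, such as vessels, blood cells and microglia, were in the same samples and would keep an intact gene. Which exons the Cre removes was not given in the sources used here, and the labels do not say whether each sample came from a separate pup, so the p-values measure the spread between these samples.

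Because the complex acts through the METTL3-METTL14 pair, the mouse coding sequence around the signature motif of each subunit is shown first. The DPPW motif of METTL3 belongs to its catalytic site, and METTL14 has EPPL at the corresponding place. A search of the GENCODE vM21 transcript with the longest coding sequence found each motif once in its protein, at residue 395 of 580 in METTL3 and at residue 192 of 456 in METTL14. The *Mettl3* window lies in exon 6 of 11 at chr14:52297557-52297616 and the *Mettl14* window in exon 7 of 11 at chr3:123374781-123374840, both on the minus strand of GRCm38. The capitals mark the codons of the motif.
*Mettl3*: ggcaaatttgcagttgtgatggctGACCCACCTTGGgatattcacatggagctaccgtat
*Mettl14*: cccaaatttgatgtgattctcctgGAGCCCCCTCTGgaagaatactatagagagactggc

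The most common sequence that the complex methylates has GGACT as its core, and m6A is enriched around stop codons. In the study's retinal data the m6A peaks lay largely in coding regions. The letters GGACT, searched on the transcript strand, occurred in the transcripts of all 8 writer genes. They occurred in 92.02% of the transcripts of 14274 genes, so their presence is no mark of the writer genes. The density was 2.43 per kb in *Wtap* and 1.98 per kb in *Mettl3*, and 5.72% and 12.2% of genes had at least these densities. The median over genes was 1.06 per kb. *Rbm15* had the lowest density of the 8, with 2 copies at 0.461 per kb, and 84.3% of genes had at least that density. *Wtap*, *Mettl3* and *Mettl14* each had a single GGACT within 200 bases of the stop codon, and the other 5 writer genes had none there. At least 1 copy in this stretch was found in 39.43% of genes. The windows below show these 3 sites and both sites of *Rbm15*, with GGACT in capitals, because *Mettl3*, *Wtap* and *Rbm15* gave the largest differences between the groups and *Mettl14* is the partner of *Mettl3*. All 5 windows lie on the minus strand of GRCm38. No methylation was measured in these samples, so a match says only that these letters are present. The study mapped retinal m6A peaks in other samples, and these windows are not set against those peaks here.
*Wtap*, coding, chr17:12967488-12967516: tcagaatggcttGGACTcaaatgtaaatg
*Mettl3*, 3′ UTR, chr14:52294906-52294934: cacaccttaagaGGACTgtttacgcaata
*Mettl14*, 3′ UTR, chr3:123369251-123369279: accccaccccagGGACTggcagttgtcac
*Rbm15*, coding, chr3:107332879-107332907: ccgtggcggtgaGGACTccagttctcgtg
*Rbm15*, coding, chr3:107331178-107331206: cagaggtgatcgGGACTtgcccagcagca

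Total counts ranged from 16227095 to 20281517 per sample. The writer genes had between 285 counts (*Cbll1* in control replicate 1) and 4042 counts (*Rbm15b* in *Mettl3*-CKO replicate 4), so all 8 passed the filter on low counts. Levels within a gene are given as CPM (counts scaled to a common library size) after TMM scaling of the library sizes. The quasi-likelihood test of edgeR was run on the 17998 genes that passed the filter, p-values were adjusted over all of them by Benjamini-Hochberg, and a gene was called at an adjusted p under 0.05. Of these genes, 6.49% were called higher and 4.05% lower in *Mettl3*-CKO retinas. The 9 photoreceptor, bipolar, amacrine, Müller and progenitor markers of the retina that were summed were all detected in every sample (lowest value 20.4 CPM, for *Rcvrn*). Their summed level was lower in *Mettl3*-CKO samples (3518 to 3932 CPM) than in controls (4268 to 4906 CPM). Of the 9, 1 was called higher and 3 lower. The 10 markers of dividing progenitors summed to 1972 to 2663 CPM in *Mettl3*-CKO samples and to 1517 to 1909 CPM in controls, with 3 called higher and 0 lower. Control replicates 1 and 4 stood apart. Lens crystallins and other lens genes (10 genes, 6 tested, 5 called lower) summed to 3734 CPM in control replicate 4 and 71.3 CPM in control replicate 1, against 4.47 to 18.8 CPM in the other 6 samples, where *Cryaa* was at 0 to 6.48 CPM. The 10 vascular markers summed to 557.1 to 654.9 CPM in controls and 540.8 to 635.6 CPM in *Mettl3*-CKO samples, of which *Kdr* made up 481.2 CPM or more in every sample. The other 9, a split made after the values had been seen, summed to 75.9 CPM in control replicate 1, to 31.3 to 33.7 CPM in the other controls and to 16.6 to 19.5 CPM in *Mettl3*-CKO samples, and of the 10, 9 passed the filter and 6 were called lower. Erythrocyte markers (2 of 3 tested called lower) summed to 13.96 to 26.5 CPM in controls and 4.35 to 7.23 CPM in *Mettl3*-CKO samples. Pigment epithelium markers (1 higher and 3 lower of 5 tested) summed to 68.1 to 97.4 and 48.9 to 69.6 CPM, and microglial markers (0 of 6 called in either direction) to 29.9 to 91.9 and 51.1 to 71.7 CPM. The part of these differences in the results on the writer genes was not tested.

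The writer genes did not move together. The means of the catalytic pair were lower in *Mettl3*-CKO retinas, with neither gene called. The means of the 6 scaffold and RNA-binding genes were all higher. Of these 6, 4 were called higher: *Rbm15*, *Wtap*, *Rbm15b* and *Virma*. No writer gene was called lower. Thus 4 of 8 were called higher, against 6.49% of all genes tested, and 0 of 8 lower, against 4.05%. The median log2 fold change was 0.31 over the 8 genes and -0.012 over all genes tested.

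**Figure D1:**
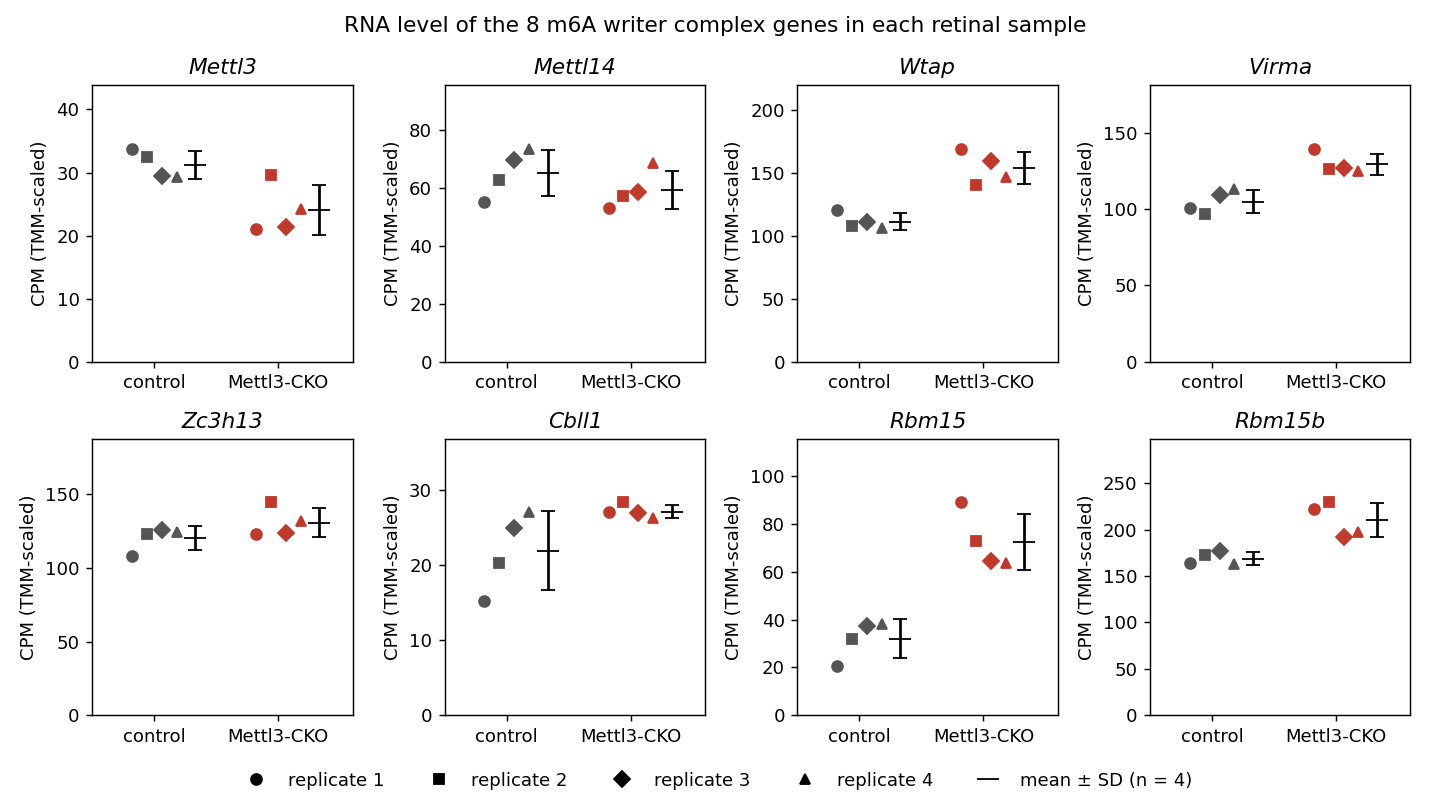
CPM of each writer gene in every sample, with 1 panel per gene and a vertical axis that starts at 0. Points are samples, their shape gives the replicate number and the bars the mean ± SD of 4. *Wtap*, *Virma*, *Rbm15* and *Rbm15b* show 4 *Mettl3*-CKO samples above the 4 controls, and *Mettl3* shows replicate 2 of the *Mettl3*-CKO group among the controls.

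*Mettl3* (ENSMUSG00000022160; chr14:52294841-52305128, minus strand, GRCm38) was examined first, because it is the gene targeted in the knockout. It measured 33.8, 32.5, 29.4 and 29.3 CPM in control replicates 1 to 4, and 21.1, 29.6, 21.3 and 24.3 CPM in *Mettl3*-CKO replicates 1 to 4. In the *Mettl3*-CKO group 3 samples were below every control, and replicate 2 lay within the range of the controls. The means were 31.2 ± 2.24 CPM (SD, n = 4) in controls and 24.1 ± 3.97 CPM (SD, n = 4) in *Mettl3*-CKO retinas, a ratio of 0.771 with a 95% interval of 0.646 to 0.920. The log2 fold change was -0.38 ± 0.12 (SE), with an adjusted p of 0.0602 by edgeR, which missed the threshold. Of all tested genes, 23.0% had a log2 fold change of at least this size in either direction. *Mettl3* passed the threshold with DESeq2 (-0.38, adjusted p = 0.032) and with limma voom (-0.39, adjusted p = 0.0139), and in edgeR once *Mettl3*-CKO replicate 2 was left out (-0.49, adjusted p = 0.0185). Over the 8 fits that each left out a sample, its adjusted p ranged from 0.0185 to 0.185, and over the other 7 settings from 0.0139 to 0.108.

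These counts cover the whole gene, so transcripts that lost the floxed exons still add their remaining exons. In RNA of the whole tissue, fewer cells with a transcript and less transcript per cell cannot be told apart. The level is therefore no measure of how complete the deletion was. The study judged the deletion efficient from METTL3 immunofluorescence in the central retina. It also found lower m6A on several candidate genes in *Mettl3*-CKO retinas. The neighbouring gene *Tox4* lies on the opposite strand and shares 933 of the 5076 exonic bases of *Mettl3*. Since the use of strand in counting was not stated, it is not known whether reads in this stretch were counted for *Mettl3*, for *Tox4* or for neither. *Tox4* had 91.0 to 95.5 CPM in *Mettl3*-CKO samples and 75.4 to 100.3 CPM in controls, with a log2 fold change of 0.076 (adjusted p = 0.673 by edgeR).

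*Mettl14* (ENSMUSG00000028114; chr3:123368297-123386108, minus strand), the partner of *Mettl3* in the heterodimer, had 55.3, 62.6, 69.6 and 73.5 CPM in control replicates 1 to 4, and 53.0, 57.4, 58.8 and 68.5 CPM in *Mettl3*-CKO replicates 1 to 4. The groups overlapped widely. The means were 65.3 ± 8.02 and 59.4 ± 6.55 CPM (SD, n = 4 each). The ratio of *Mettl3*-CKO to control was 0.911, with a 95% interval of 0.772 to 1.07 and an adjusted p of 0.503 by edgeR, so a fall of up to about the size seen for *Mettl3* and a small rise both lie in the interval.

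Among the scaffold genes, *Wtap* and *Virma* rose, and *Zc3h13* and *Cbll1* were not called. *Wtap* (ENSMUSG00000060475; chr17:12966796-12994169, minus strand) encodes the subunit that anchors the METTL3-METTL14 pair in nuclear speckles. It had 120.8, 107.5, 110.7 and 106.5 CPM in control replicates 1 to 4, and 169.2, 140.4, 159.4 and 147.0 CPM in *Mettl3*-CKO replicates 1 to 4. Every *Mettl3*-CKO sample was above every control, a pattern that 9.77% of tested genes also showed in this direction. *Wtap* was 1.38-fold higher (95% interval 1.22 to 1.57), from 111.4 ± 6.55 to 154.0 ± 12.8 CPM, with a log2 fold change of 0.47 ± 0.09 (SE) and an adjusted p of 0.00567 by edgeR. It was called in all 8 fits that each left out a sample (0.43 to 0.51) and in all 7 other settings (0.46 to 0.51).

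*Virma* (ENSMUSG00000040720; chr4:11485958-11550684, plus strand) encodes the largest scaffold subunit, which directs methylation towards the stop codon and 3′ UTR. It had 100.5, 96.7, 109.3 and 113.4 CPM in control replicates 1 to 4, and 139.6, 126.5, 127.2 and 124.8 CPM in *Mettl3*-CKO replicates 1 to 4. The groups did not overlap, with the highest value in *Mettl3*-CKO replicate 1. *Virma* was 1.23-fold higher (95% interval 1.09 to 1.40), from 105.0 ± 7.73 to 129.5 ± 6.80 CPM, with an adjusted p of 0.0366 by edgeR. This call was close to the threshold. The log2 fold change stayed between 0.27 and 0.34 in the 8 fits that each left out a sample, but *Virma* was called only in the fits without control replicate 1 and without control replicate 4, and the adjusted p reached 0.133 without *Mettl3*-CKO replicate 1. With the replicate number as a block the adjusted p was 0.0528.

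*Zc3h13* (ENSMUSG00000022000; chr14:75284373-75344426, plus strand), whose product keeps the complex in the nucleus, had 108.4, 123.0, 125.7 and 124.3 CPM in control replicates 1 to 4, and 122.8, 144.5, 123.9 and 132.2 CPM in *Mettl3*-CKO replicates 1 to 4. The groups overlapped, and control replicate 1 was the lowest sample. Its ratio was 1.09 (95% interval 0.956 to 1.24), with an adjusted p of 0.432 by edgeR. *Cbll1* (ENSMUSG00000020659; chr12:31484829-31499616, minus strand) encodes HAKAI, a RING-finger protein first known as a ubiquitin ligase. It had 15.3, 20.4, 25.02 and 27.2 CPM in control replicates 1 to 4, and 27.1, 28.4, 27.0 and 26.3 CPM in *Mettl3*-CKO replicates 1 to 4. The 4 *Mettl3*-CKO samples lay close together (27.2 ± 0.886 CPM), whereas the controls spread from 15.3 to 27.2 CPM. The ratio of 1.24 was as large as that of *Virma*, but its interval of 0.990 to 1.55 included 1, and the adjusted p was 0.225 by edgeR. Without control replicate 1 the log2 fold change of *Cbll1* moved from 0.31 to 0.17.

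The RNA-binding subunits were both higher, and *Rbm15* rose most. *Rbm15* (ENSMUSG00000048109; chr3:107325421-107333673, minus strand) encodes an RNA-binding protein of the split-ends family that brings the complex to RNA through WTAP. It had 20.5, 32.0, 37.4 and 38.2 CPM in control replicates 1 to 4, and 89.0, 72.8, 64.7 and 63.6 CPM in *Mettl3*-CKO replicates 1 to 4. The lowest *Mettl3*-CKO sample was well above the highest control. *Rbm15* was 2.27-fold higher (95% interval 1.74 to 2.94), from 32.0 ± 8.14 to 72.5 ± 11.7 CPM. The log2 fold change was 1.18 ± 0.17 (SE), with an adjusted p of 0.00171 by edgeR, and only 1.75% of tested genes had a log2 fold change of at least this size. Control replicate 1 was the lowest in *Rbm15*. This library also had the lowest sum of dividing-progenitor markers (1517 CPM). Its sums of retinal (4906 CPM), microglial (91.9 CPM), pigment epithelium (97.4 CPM) and non-*Kdr* vascular markers (75.9 CPM) were the highest. The part of these differences in its *Rbm15* level was not tested. Without control replicate 1 the log2 fold change of *Rbm15* was 1.02, the lowest of the 8 fits that each left out a sample. Without control replicates 1 and 4 it was 1.06, with an adjusted p of 0.000612 by edgeR. *Rbm15* was called in all of these fits and in all 7 other settings. Its exons overlap no other gene of the annotation.

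*Rbm15b* (ENSMUSG00000074102; chr9:106880918-106887428, minus strand), a paralog that shares this role, had 163.8, 172.2, 176.6 and 162.7 CPM in control replicates 1 to 4, and 221.9, 229.3, 192.0 and 197.5 CPM in *Mettl3*-CKO replicates 1 to 4. The groups did not overlap. *Rbm15b* was 1.25-fold higher (95% interval 1.10 to 1.41), from 168.8 ± 6.69 to 210.2 ± 18.2 CPM, with an adjusted p of 0.0284 by edgeR. It was called in 4 of the 8 fits that each left out a sample, with log2 fold changes of 0.27 to 0.36. The call was lost without *Mettl3*-CKO replicate 1 or 2 or control replicate 2 or 4 (adjusted p 0.0672 to 0.0943), and the adjusted p was 0.0837 without control replicates 1 and 4. The annotated span of *Manf*, on the same strand, covers that of *Rbm15b*. It shares 14 of the 6511 exonic bases of *Rbm15b*, and *Dcaf1* on the opposite strand shares 75. The log2 fold changes were 0.37 for *Manf*, 0.36 for *Dcaf1* and 0.32 for *Rbm15b*, and the part of shared reads in them was not tested. Of the other writer genes, *Cbll1* overlaps an antisense gene that had no count in any sample, and the antisense gene within *Virma* shares no exonic base with it.

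The summed level of the 10 dividing-progenitor markers, of which 3 were called higher, was also above the controls in every *Mettl3*-CKO sample (1972 to 2663 against 1517 to 1909 CPM). *Mki67* and *Top2a* made up at least 404.6 and 392.3 CPM of this sum in every sample. The part of the sum in the rises of *Wtap*, *Virma*, *Rbm15* and *Rbm15b* was not tested.

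**Figure D2:**
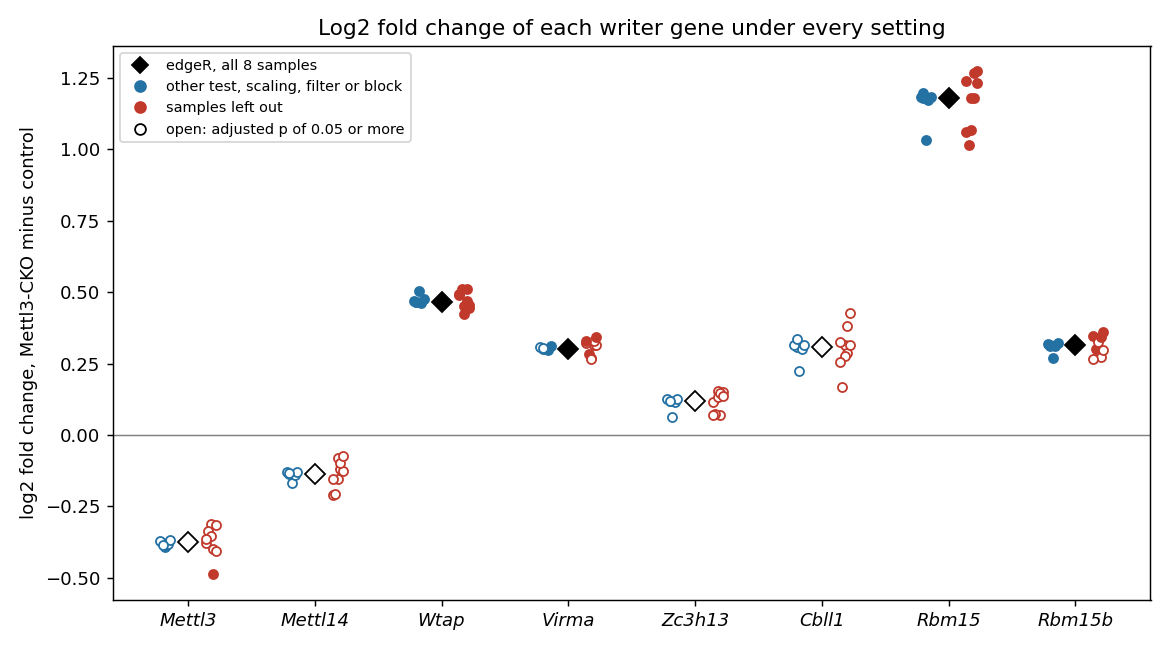
Log2 fold change of each writer gene, *Mettl3*-CKO minus control, under every setting. The black diamond is the edgeR fit to all 8 samples, blue points are other tests, scalings, filters or the block, red points are fits with samples left out, and open symbols have an adjusted p of 0.05 or more. No gene changed direction, *Wtap* and *Rbm15* were filled throughout, and *Virma* and *Rbm15b* were filled in some fits only.

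To see how the subunits stood to each other within a library, FPKM (the count divided by the library total and by the deposited gene length) was compared between genes. In controls *Rbm15b* had the highest level at 25.8 ± 1.26 FPKM, followed by *Zc3h13* at 19.1 ± 1.58, *Wtap* at 17.7 ± 0.703, *Virma* at 14.6 ± 1.20, *Mettl14* at 8.76 ± 1.20, *Mettl3* at 6.11 ± 0.372, *Cbll1* at 5.47 ± 1.38 and *Rbm15* at 4.30 ± 1.14 FPKM (SD, n = 4 each). The ranges of *Zc3h13* and *Wtap*, of *Mettl3* and *Cbll1*, and of *Cbll1* and *Rbm15* overlapped between neighbours, and those of the other neighbours did not. In *Mettl3*-CKO samples *Rbm15* moved from the last place to the fifth, at 9.79 ± 1.61 FPKM, and *Mettl3* was the lowest of the 8 at 4.75 ± 0.778 FPKM, next to *Cbll1* at 6.80 ± 0.201 FPKM. The last places turn on the length used, as follows.

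This order depends on the length assigned to each gene, because the deposited lengths cover all annotated exons. *Wtap* is counted over 6248 bases, but its transcript with the longest coding sequence has 2060. With transcript lengths, which were tried after the levels had been seen, *Wtap* came first in controls at 53.7 ± 2.13 FPKM, then *Rbm15b* and then *Mettl14* at 23.7 ± 3.23 FPKM and *Cbll1* last at 5.62 ± 1.42 FPKM, and 7 of the 8 genes changed rank. *Mettl3* kept the sixth place at 15.3 ± 0.932 FPKM. In *Mettl3*-CKO samples *Cbll1* was then also the lowest, at 6.98 ± 0.207 FPKM, below *Mettl3* at 11.9 ± 1.95 FPKM. Comparisons of the groups within a gene, and the log2 differences between groups of a ratio of 2 genes, do not depend on these lengths. The size of each ratio and the shares of a sum over genes do.

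The ratio of *Mettl3* to its partners was then compared, since a ratio within a library is free of library scaling. *Mettl3* to *Mettl14* was 0.892, 0.757, 0.617 and 0.583 in control replicates 1 to 4, and 0.583, 0.754, 0.530 and 0.518 in *Mettl3*-CKO replicates 1 to 4. The groups overlapped. The mean ratio was 0.712 ± 0.142 in controls and 0.596 ± 0.109 in *Mettl3*-CKO samples (SD, n = 4 each), a difference of -0.25 on the log2 scale, with p = 0.2 by a two-sided exact permutation test, of which the smallest possible p is 0.0286. Between the subunits of the heterodimer a change of the ratio was thus not detected, which does not show that the ratio was unchanged.

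Against the other 6 partners the ratio of *Mettl3* was lower in every *Mettl3*-CKO sample than in every control. This pattern was common, since 26.8% of all tested genes showed it when set against *Mettl3*, and no test was made of these ratios. *Mettl3* to *Wtap* was 0.344, 0.372, 0.327 and 0.339 in control replicates 1 to 4, and 0.154, 0.260, 0.165 and 0.203 in *Mettl3*-CKO replicates 1 to 4, a difference of -0.85 on the log2 scale. *Mettl3* to *Rbm15* was 2.40, 1.49, 1.149 and 1.12 in controls and 0.347, 0.595, 0.482 and 0.558 in *Mettl3*-CKO samples, a difference of -1.59. *Mettl3* thus exceeded *Rbm15* per kilobase of deposited length in every control and was below it in every *Mettl3*-CKO sample. The differences were -0.73 for *Cbll1*, -0.70 for *Rbm15b*, -0.69 for *Virma* and -0.51 for *Zc3h13*. The FPKM of *Mettl3* made up 5.43% to 6.89% of the sum over the 8 writer genes in controls and 3.19% to 4.53% in *Mettl3*-CKO samples. The share of *Mettl14* was 7.73% to 9.41% in controls and 5.48% to 7.60% in *Mettl3*-CKO samples, although the level of this gene itself was not called. A share also falls when other genes of the sum rise, so it is no separate measure of *Mettl14*. *Rbm15* had 2.87% to 4.89% of the sum in controls and 7.05% to 9.20% in *Mettl3*-CKO samples. These shares rest on the deposited lengths and were not tested.

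**Figure D3:**
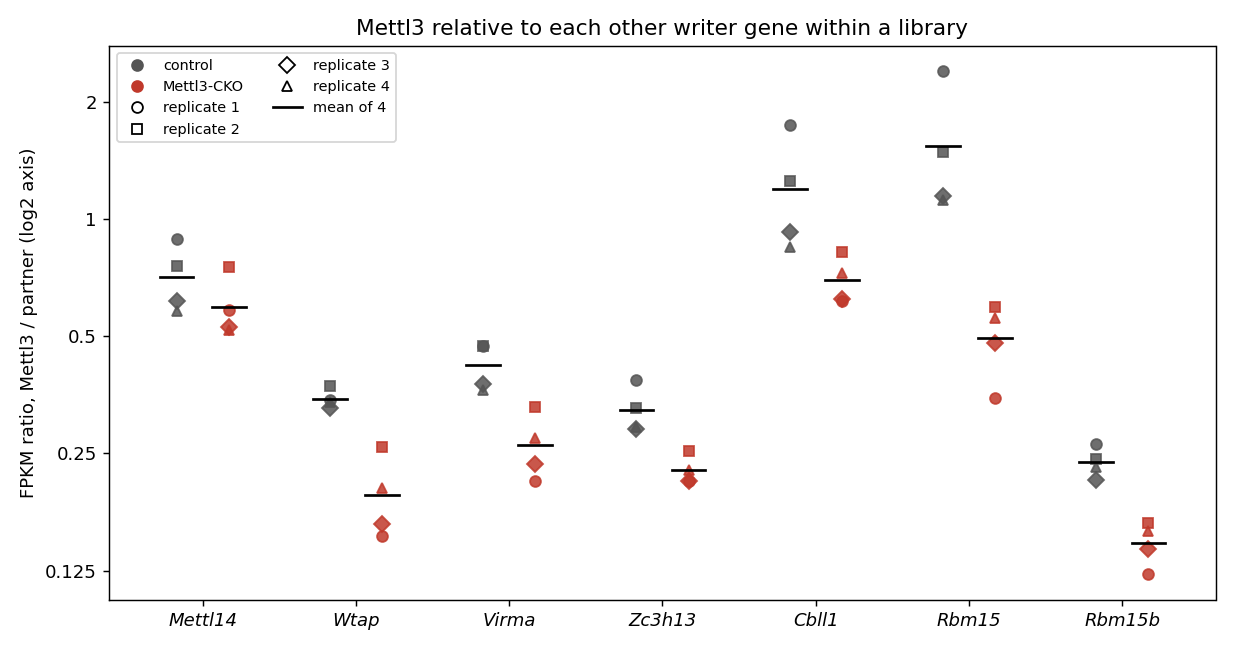
Ratio of the FPKM of *Mettl3* to that of each partner gene within a library, on a log2 axis. Points are samples (grey for controls, red for *Mettl3*-CKO, shape for the replicate number) and lines the mean of 4. The groups overlap for *Mettl14* and are apart for the other 6 partners, most widely for *Rbm15*.

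The RNA-binding paralogs were set against each other in the same way. *Rbm15* to *Rbm15b* was 0.110, 0.163, 0.186 and 0.206 in control replicates 1 to 4, and 0.352, 0.279, 0.296 and 0.283 in *Mettl3*-CKO replicates 1 to 4. The groups did not overlap, as they did not for *Rbm15* alone. The share of all genes whose ratio to *Rbm15b* separates the groups in this way was not computed. *Rbm15* remained the less abundant paralog in all 8 samples. The mean was 0.166 ± 0.0413 in controls and 0.302 ± 0.0338 in *Mettl3*-CKO samples, a difference of 0.90 on the log2 scale, which was not tested.

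The genes around the writer complex were examined as lists of readers, erasers, other N6-adenosine methyltransferase genes and genes that supply S-adenosylmethionine. Of the 14 readers, 3 were called higher and 0 lower, against 6.49% and 4.05% of all genes tested, with a median log2 fold change of 0.055. *Ythdf2*, whose product directs m6A-bearing mRNA to decay, had 84.0, 64.5, 74.3 and 65.5 CPM in control replicates 1 to 4, and 159.7, 117.8, 133.5 and 122.0 CPM in *Mettl3*-CKO replicates 1 to 4. Its log2 fold change of 0.89 (adjusted p = 0.000929 by edgeR) was larger than that of any writer gene but *Rbm15*. *Ythdf1*, a cytoplasmic reader linked to translation, rose from 86.6 ± 5.35 to 131.3 ± 13.96 CPM (log2 fold change 0.60, adjusted p = 0.00235 by edgeR). Both were called in all 8 fits that each left out a sample. *Igf2bp1*, which stabilises mRNA, rose from 28.2 ± 7.68 to 46.9 ± 11.3 CPM (0.73, adjusted p = 0.039 by edgeR), and it was called in 4 of those 8 fits. The call was lost without *Mettl3*-CKO replicate 1 (adjusted p = 0.151), *Mettl3*-CKO replicate 2, control replicate 2 or control replicate 3, and with the replicate block (adjusted p = 0.0735). *Ythdf3*, the remaining cytoplasmic YTHDF reader, had a log2 fold change of 0.13 (adjusted p = 0.285 by edgeR), and the nuclear reader *Ythdc1* of 0.23 (adjusted p = 0.11). Neither was called, although for both genes every *Mettl3*-CKO sample was above every control. *Rbmx*, a nuclear RNA-binding protein, was lower in all 4 *Mettl3*-CKO samples (179.9 to 243.6 CPM) than in the controls (250.6 to 272.4 CPM), as 7.58% of tested genes were. Its log2 fold change of -0.31 was not called by edgeR (adjusted p = 0.0563), but it was called in 2 of the 7 other settings (adjusted p 0.0115 to 0.0896) and in 2 of the 8 fits that each left out a sample (0.0308 to 0.169).

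Neither eraser was called. The log2 fold change was -0.048 for *Fto* (95% interval -0.22 to 0.12) and -0.03 for *Alkbh5* (-0.25 to 0.19), both demethylases of m6A. Of the 7 other methyltransferase genes, 1 was called higher and 0 lower, a count too small to set apart from the 6.49% and 4.05% of all genes tested. *Mettl16* encodes the separate enzyme that methylates U6 snRNA and the mRNA of the S-adenosylmethionine synthetase *Mat2a*. It had 40.0, 40.8, 37.9 and 38.2 CPM in control replicates 1 to 4, and 60.1, 53.8, 47.6 and 49.5 CPM in *Mettl3*-CKO replicates 1 to 4. Every *Mettl3*-CKO sample was above every control for *Mettl16*, as for 9.77% of all genes tested. Its log2 fold change was 0.43 (adjusted p = 0.0126 by edgeR). *Mat2a*, *Mat2b* and *Ahcy* supply S-adenosylmethionine or clear its product, and 0 of these 3 were called in either direction (log2 fold changes -0.19, -0.086 and 0.22). The 95% interval of *Mat2a* was -0.39 to 0.008. *Ahcy* was higher in every *Mettl3*-CKO sample than in every control, without a call. The median log2 fold change was -0.039 over the erasers, 0.029 over the other methyltransferase genes and -0.086 over the S-adenosylmethionine genes.

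**Figure D4:**
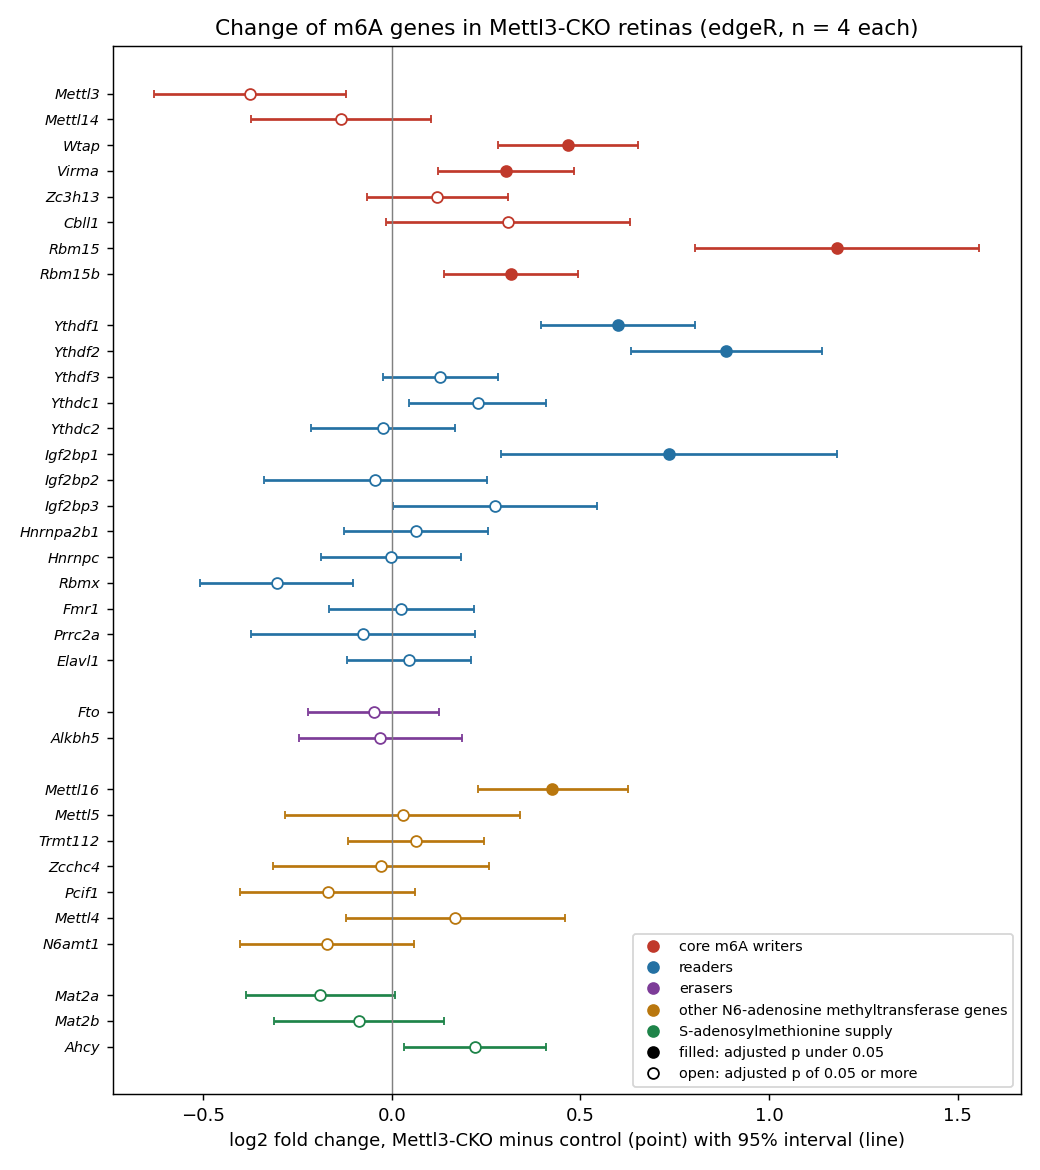
Log2 fold change, *Mettl3*-CKO minus control, of the 8 writer genes and the 26 other m6A genes, grouped by role, with 95% intervals as lines (edgeR, 4 samples per group). Filled points have an adjusted p under 0.05. The 8 filled points all lie to the right of 0: *Wtap*, *Virma*, *Rbm15*, *Rbm15b*, *Ythdf1*, *Ythdf2*, *Igf2bp1* and *Mettl16*.

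The profile of *Mettl3* over the 8 samples was compared with those of 11365 other genes with a mean log2 CPM of at least 3, by the root mean square difference of log2 CPM after each gene's mean had been subtracted. The profile of *Mettl3* itself had a root mean square of 0.245. The nearest genes were *Rtl5*, a retrotransposon-derived gene, at 0.0392, *Cdkn1b*, which encodes the cell cycle inhibitor p27, at 0.0745, *Cd47*, a surface protein that restrains phagocytosis, at 0.0752, *Arhgef15*, a guanine nucleotide exchange factor, at 0.0773, and *Pdlim5*, a PDZ and LIM domain protein, at 0.0806. Their log2 fold changes ranged from -0.47 for *Pdlim5* to -0.33 for *Cd47*. Of these 5 genes, *Cdkn1b*, *Arhgef15* and *Pdlim5* were called lower by edgeR (adjusted p = 0.0163, 0.034 and 0.0153), a direction that their nearness to *Mettl3* fixes. No writer partner was among them, since the genes of the complex were left out of the search.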

How the data were processed

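The authors isolated retinal RNA, made NEBNext Ultra libraries, sequenced paired-end reads, mapped them to GRCm38 (mm10) with HISAT2 and counted reads per gene with featureCounts, according to the study's methods and the labels' tool list, which also names CASAVA. The deposited values are raw counts per gene for 8 samples. The annotation release and the use of strand were not given in the sources used here, so overlapping genes are uncertain. All 8 sample columns were used, matched by label.

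The 8 writer genes, the gene lists and the settings were chosen with earlier results of these data known. The main test was that of edgeR 4.0.16 under R 4.3.3 (filterByExpr by group, TMM, glmQLFit and glmQLFTest, Benjamini-Hochberg adjustment over 17998 genes, threshold 0.05), without covariates. The SE is the absolute log2 fold change divided by the square root of F. The alternatives were DESeq2 1.42.0, limma 3.58.1 (voom with sample quality weights), RLE factors, library totals, genes with at least 1 count, a replicate block and samples left out. Log2 CPM used a prior count of 2. FPKM was computed from counts, total counts and the deposited gene length. The scripts were tested on simulated data. The biological coefficient of variation was 10.0% to 17.7% for the writer genes and 15% in common.

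Genes were named as follows: the 8 writer genes, genes that overlap them, members of the m6A lists past the threshold, and the 5 genes whose profile is nearest to *Mettl3*. *Rbmx*, *Ythdf3*, *Ythdc1*, the erasers and the S-adenosylmethionine genes were named in addition, after their values had been seen. Exon overlaps and sequences came from GENCODE vM21, a GRCm38 annotation. RefSeq promoter sequences were not used. A member of the retinal marker list is not reported here and was left out of its sum.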

Additional observations from a re-analysis of the deposited data

Results flagged for a closer look

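In 20 groups of 4 samples that were examined for a sample far from the rest, 2 had such a sample, and chance gives about 1 in 20. *Virma* in *Mettl3*-CKO replicate 1 had 7.13 log2 CPM, against 6.97 to 6.99 in the other 3 samples, a gap of 0.831 of the range of the group (just above Dixon's 95% critical value for 4 samples). *Zc3h13* in control replicate 1 had 6.76 log2 CPM, against 6.94 to 6.98 in the other controls, a gap of 0.851 of the range. *Virma* was not called without *Mettl3*-CKO replicate 1 (log2 fold change 0.27, adjusted p = 0.133 by edgeR), and *Zc3h13* was not called with or without control replicate 1.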

How the results depend on the processing

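No log2 fold change of a writer gene changed direction under any setting, and *Wtap* and *Rbm15* were called in all of them. The number of writer genes called lower was 0 by edgeR and 1 (*Mettl3*) with DESeq2, with voom and without *Mettl3*-CKO replicate 2, a range of 0 to 1 when each sample was left out in turn. Without *Mettl3*-CKO replicate 1, *Mettl3*-CKO replicate 2 or control replicate 2 the number called higher was 2 in place of 4 (range 2 to 4). It was 3 with the filter of at least 1 count, which lost *Virma* (adjusted p = 0.0561), and 3 without control replicates 1 and 4, which lost *Rbm15b*. Over all genes, 729 lower and 1168 higher calls became 1568 and 2142 with voom, and ranged from 185 to 1289 and from 509 to 1882 when a sample was left out, with the lowest counts without *Mettl3*-CKO replicate 1 and the highest without control replicate 1. The cause was not tested. Other scalings left the median of all genes between -0.016 and -0.003.

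The correlation of deviations between samples of the same replicate number was -0.111, 0.215, -0.114 and 0.249. Between samples of different number it ranged from -0.227 to 0.264. The same-number values lay within this range, which neither shows nor excludes a pairing by number. With the replicate block 3 writer genes were called higher and 0 lower, with *Virma* at an adjusted p of 0.0528, and the *Mettl3* to *Mettl14* ratio had p = 0.125 in an exact sign-flip permutation test, the smallest that 4 pairs allow.

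The log2 difference of that ratio was -0.25, ranged from -0.37 to -0.14 when a sample was left out (exact permutation p 0.114 to 0.4), and was -0.71 against the summed FPKM of the 7 partners. In the order of the writer genes, 5 ranks differed in *Mettl3*-CKO samples, 7 with transcript lengths, and 0 to 2 when a control was left out. Every writer gene had 285 counts or more in each sample, and other depths were not examined. The interval of *Cbll1* included no change.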
